A study of Mus musculus with 10 samples.

Results

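Spectrins, ankyrins and spectraplakins are the large linker proteins that join actin, microtubules and membrane proteins in neurons, and 9 of the 24453 genes in the deposited count table encode members described here. The genes *Sptan1*, *Sptb*, *Sptbn1*, *Sptbn4*, *Ank1*, *Ank2*, *Ank3*, *Dst* and *Macf1* were listed by name and not by their measured values, and all 9 were found in the table. RNA-seq had been performed on 5 *Fezf2+ve* and 5 *Fezf2−ve* samples of intratelencephalic projection neurons (IT-PNs), to ask which genes differ between these types of layer 5 neuron in the primary motor cortex (M1). Each of 5 male mice gave 1 library of each type, so that libraries with the same number came from the same animal. All animals were hemizygous for the (Zfp312-EGFP)CO61GsatMmnc transgene on a Swiss Webster background, in which regulatory elements of *Fezf2* drive GFP. Cholera toxin subunit B (CTB) carrying Alexa 647, a retrograde tracer, was injected in the left M1 at postnatal day 23 to 25, and layer 5 of the right M1 was collected at postnatal day 28 to 32. Cells positive for GFP and CTB were sorted as *Fezf2+ve* IT-PNs, and cells positive for CTB without GFP as *Fezf2−ve* IT-PNs, so the types were defined by the reporter and not by the *Fezf2* transcript. The RNA was amplified by PCR and again by in vitro transcription, and the amplified RNA was fragmented before sequencing. No molecular identifiers were named for these libraries, so reads are not independent molecules, and intervals and detection floors cover counting error only.

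Spectrin is built from α and β chains that form a flexible lattice under the plasma membrane, which spaces actin rings along axons. Ankyrins fasten membrane proteins, such as sodium channels and cell adhesion molecules, to β-spectrin, and ankyrin G organizes the axon initial segment where action potentials start. Spectraplakins are giant proteins that carry spectrin repeats and link actin filaments to microtubules.

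Between 89138 and 217738 reads were counted on genes in a library. At this depth 3 reads, taken as the detection floor, corresponded to 13.8 to 33.7 CPM (reads scaled to a common total of gene reads), depending on the library. Reads on the ERCC spike-in, a set of synthetic RNAs, made up 2.79% (*Fezf2−ve* library 5) to 46.7% (*Fezf2+ve* library 1) of the reads on genes and spike-in together. The labelled cell type was checked against marker genes. Of 11 markers of glutamatergic neurons, 7 had enough reads to be tested and *Tbr1* had 0 reads in all 10 libraries, whereas *Slc17a7*, the vesicular glutamate transporter of cortical projection neurons, had 11 reads over all libraries and *Fezf2* itself had 1. The summed level of the glutamatergic markers was 618, 446, 271, 39.6 and 2227 CPM in *Fezf2+ve* libraries 1 to 5, and 101, 157, 3384, 61.5 and 491 CPM in *Fezf2−ve* libraries 1 to 5. The types overlapped, and *Camk2a*, the most abundant marker, had 529 of its 588 reads in *Fezf2−ve* library 3. *Camk2a*, *Grin2b* (555 reads), *Syt1* (72) and *Snap25* (62) were each read in 9 libraries. *Tbr1*, *Slc17a7* and *Fezf2* were thus at or near 0 at this depth while other markers of neurons were present, and the names of the types are those of the sort.

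Markers of other cells were present. The summed level of 13 microglia markers was 271, 177, 102, 72.6 and 128 CPM in *Fezf2+ve* libraries 1 to 5, and 6896, 5452, 7243, 1855 and 4032 CPM in *Fezf2−ve* libraries 1 to 5. Every *Fezf2−ve* library lay above every *Fezf2+ve* library for this sum, none of the 13 genes was at 0 throughout, and *Ctss* had the most reads (817). The 9 red blood cell markers hold 3 pairs of globin genes with the same counts in every library. With 1 gene of each pair left out, they summed to 753, 92.9, 8.47, 0 and 4.92 CPM in *Fezf2+ve* libraries 1 to 5, and to 3561, 2805, 190, 241 and 9.19 CPM in *Fezf2−ve* libraries 1 to 5, with *Hbb-bs* the most abundant. These sums overlapped between the types, although within each animal the *Fezf2−ve* library had the higher value. Of 8 GABAergic interneuron markers, *Slc32a1*, *Pvalb*, *Vip* and *Dlx1* had 0 reads in all libraries. The part of these other cells in the values of the 9 genes was not tested, and in such bulk samples fewer cells of a type and less RNA per cell cannot be told apart.

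**Figure D1:**
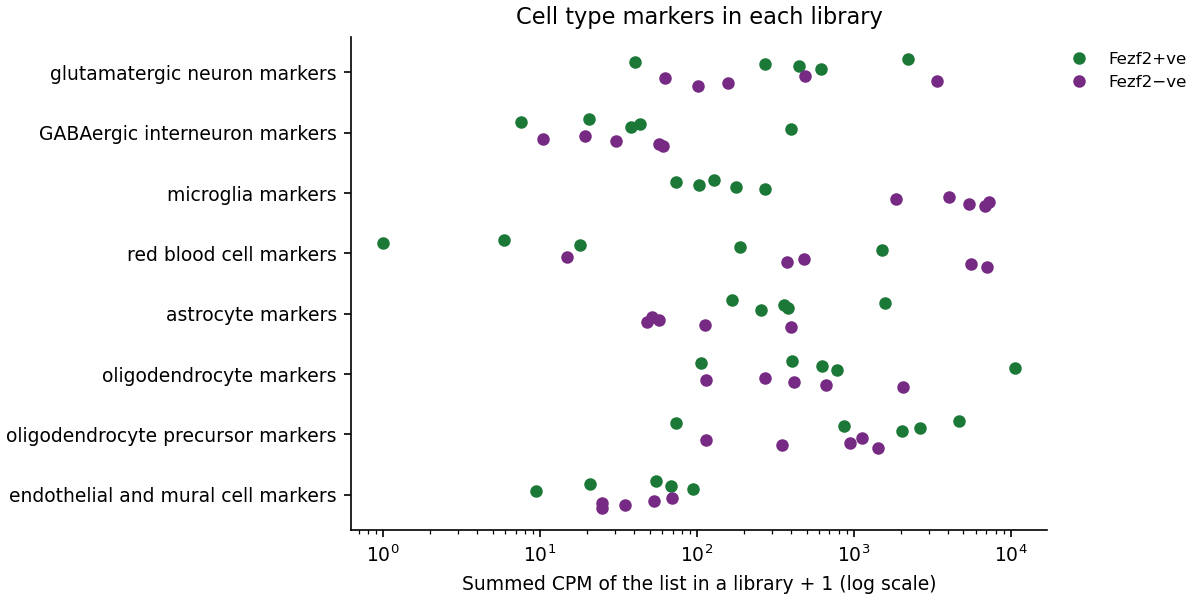
Summed CPM of 8 lists of cell type markers in each library, with 1 added and on a log axis; each point is 1 library, green for *Fezf2+ve* and purple for *Fezf2−ve*. For the microglia markers the *Fezf2+ve* libraries lay between 72.6 and 271 CPM and the *Fezf2−ve* libraries between 1855 and 7243 CPM, whereas the types overlapped for the other 7 lists. The red blood cell sum drawn here takes both genes of each globin pair.

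The 9 genes together held 10212 reads, of which 9246 were *Dst* reads in *Fezf2−ve* library 5, leaving 966 for all other values. Of the 90 values (9 genes in 10 libraries), 33 were 0 and 21 were 1 to 3 reads. *Sptan1*, *Ank3*, *Dst* and *Macf1* were read in 9 or 10 libraries, and the other 5 genes had fewer than 25 reads each over all libraries.

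**Figure D2:**
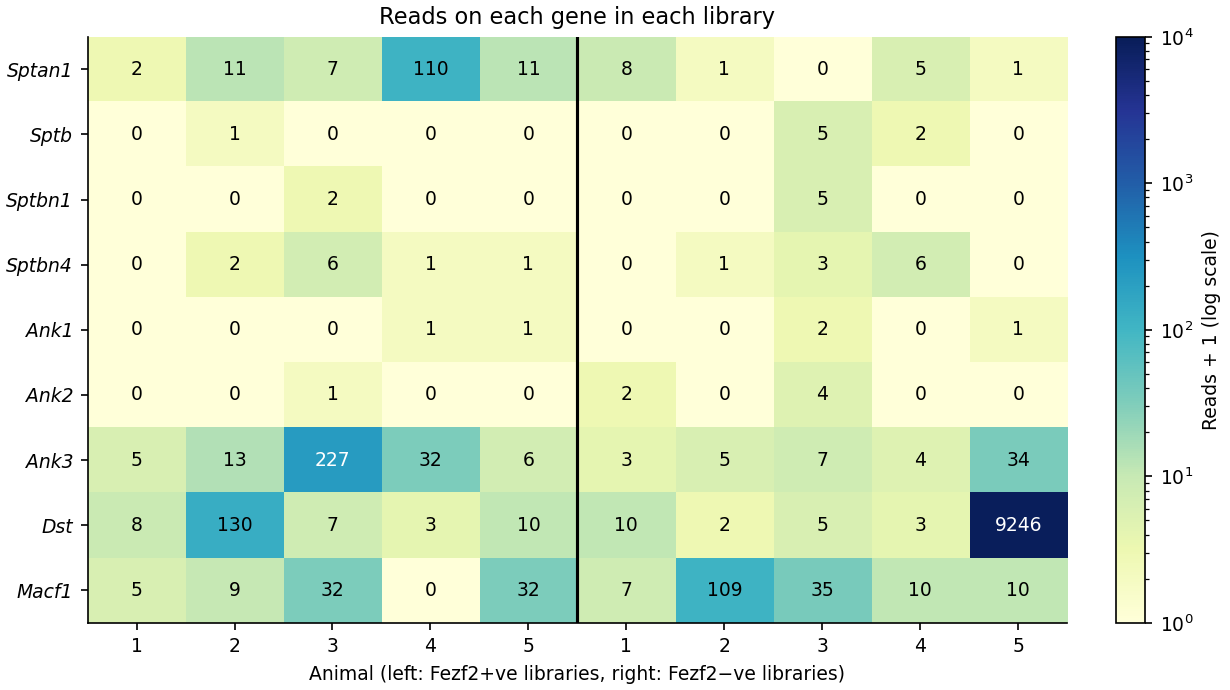
Reads on each of the 9 genes in each library, with *Fezf2+ve* libraries of animals 1 to 5 on the left and *Fezf2−ve* libraries of the same animals on the right; the colour follows reads + 1 on a log scale. Single libraries stood out for *Sptan1* (110 reads in *Fezf2+ve* library 4), *Ank3* (227 in *Fezf2+ve* library 3), *Dst* (9246 in *Fezf2−ve* library 5) and *Macf1* (109 in *Fezf2−ve* library 2).

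A gene was tested if it reached 10 CPM in at least 2 libraries, which 7409 genes and 7 of the 9 did, all but *Sptb* and *Ank1*. None of the 7 was called at FDR ≤0.1 by edgeR's quasi-likelihood method, fitted with a block for the animal, against a background of 0 of 7409 genes (0%). DESeq2 with the block called 98 genes (1.32%), limma-voom with the block 13 (0.175%) and edgeR without the block 279 (3.77%), and none of the 7 was among the calls of these tools, although DESeq2 gave no adjusted p for *Sptbn1*, *Sptbn4* and *Ank2*. At an unadjusted p under 0.05, edgeR with the block had 120 genes higher in *Fezf2+ve* IT-PNs (1.62% of those tested) and 168 lower (2.27%). Of the 7 genes, *Sptan1* was among the former and 0 were among the latter. The libraries of the types overlapped for all 9 genes, and did not overlap for 108 of the 7409 tested genes (1.46%). The median log2 fold change, *Fezf2+ve* over *Fezf2−ve*, was 0.49 over the 7 genes and −0.16 over all tested genes, with 4 of the 7 above 0 and 3 below 0. The sign of the median over the 7 genes turned without the block (−0.69, with 3 above 0 and 4 below 0) and without animal 2 (−0.12).

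*Sptan1* (chr2:29965560-30031451, GRCm38, plus strand) encodes αII-spectrin, the α chain of the brain, which ends in a calmodulin-like domain with EF hands. It had 2, 11, 7, 110 and 11 reads in *Fezf2+ve* libraries 1 to 5, and 8, 1, 0, 5 and 1 reads in *Fezf2−ve* libraries 1 to 5. The *Fezf2+ve* library was the higher of the pair in animals 2 to 5 and the lower in animal 1, and the types overlapped. The mean level, as log2(CPM + 1) after TMM normalization, was 6.47 ± 2.31 (SD, n = 5) in *Fezf2+ve* IT-PNs and 3.33 ± 2.21 (SD, n = 5) in *Fezf2−ve* IT-PNs. The log2 fold change was 3.21 ± 1.41 (SE), with an unadjusted p of 0.0338 and an adjusted p of 0.998 by edgeR. A two-sided exact permutation test on the paired levels gave p = 0.125, and with 5 animals this test cannot go below 0.0625. *Fezf2+ve* library 4 held 70.5% of the *Sptan1* reads, and without animal 4 the log2 fold change was 2.46 ± 1.55 (SE). The unadjusted p of *Sptan1* was above 0.05 without animal 2 (0.0813), 3 (0.0954), 4 (0.138) or 5 (0.102), after downsampling (0.144), with the legacy quasi-likelihood fit (0.0588) and with no filter (0.0505). It was below 0.05 without animal 1 (0.00695), with DESeq2 (0.0106), with limma-voom (0.0116) and with edgeR without the block (0.0135). The same held for edgeR with a filter of 10 CPM in at least 5 libraries (0.0281), with library size only (0.0362) and with RLE size factors (0.0384). Every alternative tried for *Sptan1* kept the sign, and its adjusted p over them lay between 0.136 (DESeq2) and 1. The microglia marker sums given above were higher in *Fezf2−ve* libraries, where the mean of *Sptan1* was lower. The summed level of the astrocyte markers was highest in *Fezf2+ve* library 4 (1583 CPM), the library with the most *Sptan1* reads. It was 47.4 to 399 CPM in the other libraries. Of the 240 reads behind the highest sum, 238 were on *Slc1a3*, which had 271 reads over all libraries. *Aldoc*, another astrocyte marker, had 1 read there and 24 to 31 in the other *Fezf2+ve* libraries, so that sum was almost all 1 gene. The part of either cell type in the *Sptan1* values was not tested.

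The primers that the study used to measure *Sptan1* by qPCR are shown because they place that assay within the gene. Both come from the study's primer list, and the capitals mark the bases that lie past an exon junction.
Sptan1 forward: ttgcaaaccgacgcaatgag
Sptan1 reverse: AAAGctggatgttggtgggg
By exact match to GENCODE transcripts on GRCm38, the forward primer lay within a 104-base exon (chr2:30013446-30013549). The reverse primer had 16 bases in a 163-base exon (chr2:30013676-30013838) and 4 in a 15-base exon (chr2:30014158-30014172). That short exon was present in 4 of 6 long protein-coding transcripts, and the pair matched in full those 4 alone, with an amplicon of 198 bases. The amplicon ended 2823 to 3087 bases from the 3′ end of these transcripts. The 163-base exon was present in all 6, and whether the assay also read transcripts without the short exon was not tested. The table of reads counts the gene as a whole and does not separate its transcripts.

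The β-spectrins pair with αII-spectrin and bind ankyrin. *Sptb* (chr12:76580488-76710547) encodes βI-spectrin, best known from red blood cells and also made in brain, and it had 1 read in *Fezf2+ve* library 2, 5 reads in *Fezf2−ve* library 3, 2 reads in *Fezf2−ve* library 4 and 0 reads in the other 7. *Sptbn1* (chr11:30099395-30268175) encodes βII-spectrin of the axonal lattice, and it had 2 reads in *Fezf2+ve* library 3, 5 reads in *Fezf2−ve* library 3 and 0 reads elsewhere. *Sptbn4* (chr7:27356383-27447686) encodes βIV-spectrin of the axon initial segment and nodes of Ranvier, and it had 0, 2, 6, 1 and 1 reads in *Fezf2+ve* libraries 1 to 5, and 0, 1, 3, 6 and 0 reads in *Fezf2−ve* libraries 1 to 5. All 3 genes were at or near the floor in most libraries, with their larger values in libraries of animals 3 and 4. The ratio of *Fezf2+ve* to *Fezf2−ve* reads, corrected for depth, was 0.175 for *Sptb* (exact 95% interval 0.00388 to 1.36, from 1 and 7 reads), 0.489 for *Sptbn1* (0.0466 to 2.99, from 2 and 5 reads) and 1.22 for *Sptbn4* (0.457 to 3.27, from 10 and 10 reads). Each interval held a ratio of 1, so a difference in the β-spectrins was not detectable at this depth. For *Sptbn4* the fitted log2 fold change was 0.49 ± 1.32 (SE), with an adjusted p of 0.998 by edgeR, and it was 0.09 without the block and 0.01 without animal 5.

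Among the ankyrins, *Ank1* (chr8:22974844-23150497) encodes ankyrin R, named after red blood cells and also found in some neurons. It had 1 read in *Fezf2+ve* libraries 4 and 5 and in *Fezf2−ve* library 5, 2 reads in *Fezf2−ve* library 3 and 0 reads in the other 6. *Ank2* (chr3:126921612-127499350) encodes ankyrin B, the partner of βII-spectrin along axons, and it had 1 read in *Fezf2+ve* library 3, 2 reads in *Fezf2−ve* library 1, 4 reads in *Fezf2−ve* library 3 and 0 reads in the other 7. The ratio of *Fezf2+ve* to *Fezf2−ve* reads was 0.816 for *Ank1* (exact 95% interval 0.0681 to 7.12) and 0.204 for *Ank2* (0.00443 to 1.68), and neither difference was detectable at this depth.

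*Ank3* (chr10:69398773-70027438) encodes ankyrin G, the organizer of the axon initial segment. It had 5, 13, 227, 32 and 6 reads in *Fezf2+ve* libraries 1 to 5, and 3, 5, 7, 4 and 34 reads in *Fezf2−ve* libraries 1 to 5. *Ank3* was read in all 10 libraries, and *Fezf2+ve* was the higher of the pair in 4 animals, with animal 5 the exception. The mean level was 7.25 ± 2.30 (SD, n = 5) in *Fezf2+ve* IT-PNs and 5.44 ± 1.31 (SD, n = 5) in *Fezf2−ve* IT-PNs, on the log2(CPM + 1) scale. The log2 fold change was 1.90 ± 1.41 (SE), with an adjusted p of 0.998 by edgeR, and the exact permutation test on the pairs gave p = 0.25. Neither test detected a difference, and the levels of the types overlapped. *Fezf2+ve* library 3 held 67.6% of the *Ank3* reads, and without animal 3 the log2 fold change was 0.91 ± 1.35 (SE).

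**Figure D3:**
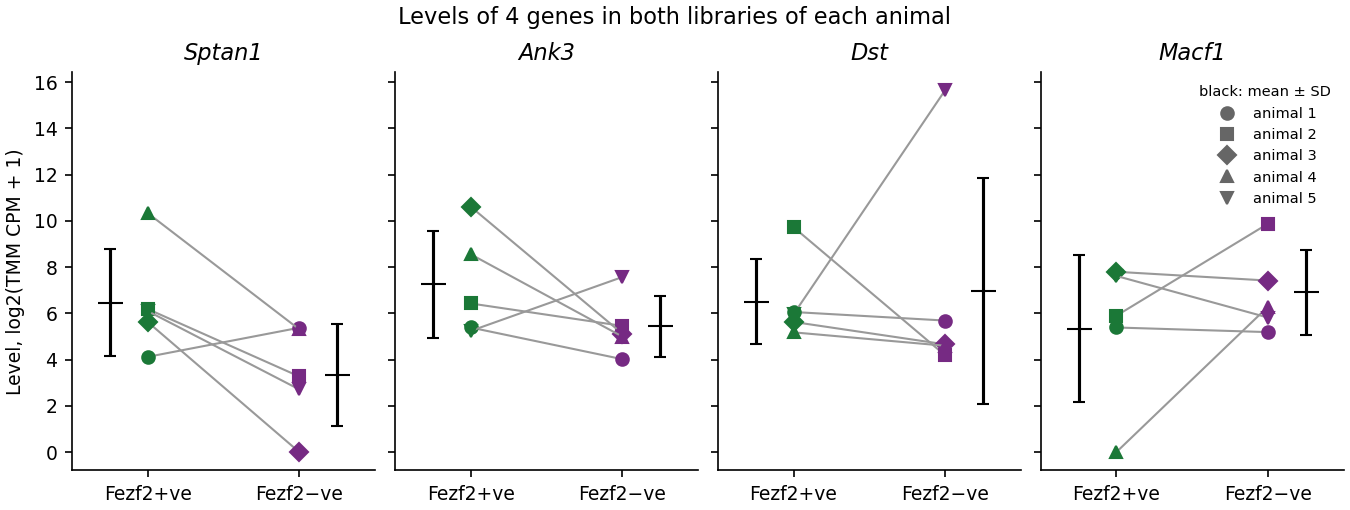
Levels of *Sptan1*, *Ank3*, *Dst* and *Macf1* as log2(TMM-normalized CPM + 1) in both libraries of each animal, joined by a line, with the mean and SD of each type in black. In 4 animals the *Fezf2+ve* library was above its pair for *Sptan1*, *Ank3* and *Dst*, and in 3 animals for *Macf1*. *Dst* reached 15.65 in *Fezf2−ve* library 5.

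*Dst* (chr1:33908225-34308661, plus strand) encodes dystonin, a spectraplakin with neuronal, epithelial and muscle isoforms. It had 8, 130, 7, 3 and 10 reads in *Fezf2+ve* libraries 1 to 5, and 10, 2, 5, 3 and 9246 reads in *Fezf2−ve* libraries 1 to 5. A single library of each type was high, library 2 of *Fezf2+ve* and library 5 of *Fezf2−ve*, and the other 8 libraries had 2 to 10 reads. In *Fezf2−ve* library 5, *Dst* was the gene with the most reads, at 4.25% of gene reads (Wilson 95% interval 4.16 to 4.33%), and in CPM this value was 35.2 times that of the next library (71.1 times in reads). The mean level was 6.51 ± 1.83 (SD, n = 5) in *Fezf2+ve* IT-PNs and 6.96 ± 4.89 (SD, n = 5) in *Fezf2−ve* IT-PNs. By level after TMM normalization *Fezf2+ve* was the higher of the pair in 4 animals and the lower in animal 5, whereas by reads it was the higher in animals 2 and 3, the lower in animals 1 and 5 and equal in animal 4. The log2 fold change was 0.54 ± 1.76 (SE), with an adjusted p of 0.998 by edgeR, and the exact permutation test gave p = 1. The sign turned without the animal block (−5.59) and without animal 2 (−0.56), and the log2 fold change was 1.52 without animal 5. None of these fits called the gene.

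The microRNA gene *Mir6896* lies in an intron of *Dst* on the same strand (chr1:34117359-34117431), and ends at the base before a 93-base *Dst* exon (chr1:34117432-34117524) that 7 protein-coding transcripts share. It had 1611 reads in *Fezf2−ve* library 5 and 0 in the other 9 libraries. Its hairpin, from RefSeq on GRCm38.p6, is shown because it marks a place within *Dst* where reads of that library were counted, and the capitals mark the last 2 bases before the exon.
microRNA 6896: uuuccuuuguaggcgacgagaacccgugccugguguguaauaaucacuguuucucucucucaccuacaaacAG
The authors' counting can assign a read to every gene it overlaps, so the *Mir6896* reads may be among the *Dst* reads. Whether they are is not known, as it is not stated whether the counted intervals held introns. The 1611 reads equal 17.4% of the *Dst* reads of that library, whereas the 73 bases of the hairpin make up 0.02% of the *Dst* span. The cDNA was primed with oligo dT and short reads were discarded. Each mature arm of the microRNA has 22 bases, and what these steps kept of it was not tested. Whether the 1611 reads came from the microRNA, from spliced *Dst* RNA or from its introns cannot be told apart in a table of counts per gene.

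*Macf1* (chr4:123349633-123684360) encodes the spectraplakin that tracks growing microtubule ends along actin. It had 5, 9, 32, 0 and 32 reads in *Fezf2+ve* libraries 1 to 5, and 7, 109, 35, 10 and 10 reads in *Fezf2−ve* libraries 1 to 5. By level after TMM normalization the *Fezf2+ve* library was the higher in 3 animals and the lower in 2, whereas by reads it was the higher in animal 5 alone, and the ranges overlapped. The mean level was 5.34 ± 3.17 (SD, n = 5) in *Fezf2+ve* IT-PNs and 6.92 ± 1.84 (SD, n = 5) in *Fezf2−ve* IT-PNs. The log2 fold change was −0.89 ± 1.47 (SE), with an adjusted p of 0.998 by edgeR, and the exact permutation test gave p = 0.5. Without 1 animal the log2 fold change lay between −1.87 and −0.12. *Macf1* was the most evenly spread of the 4 well-read genes, with 43.8% of its reads in its top library.

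**Figure D4:**
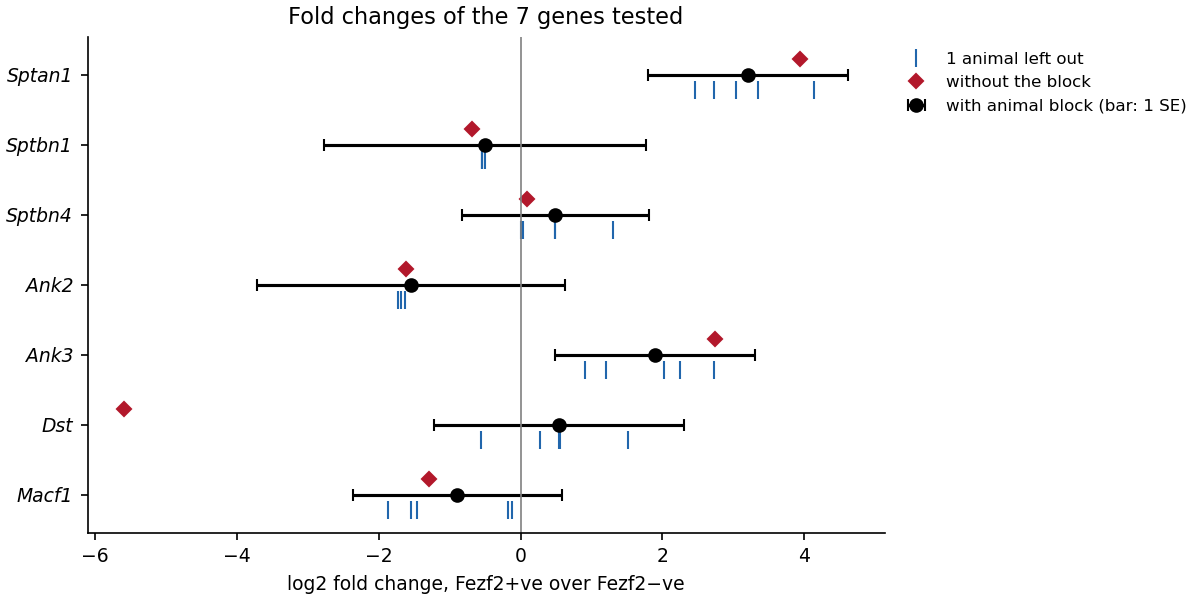
Log2 fold changes (*Fezf2+ve* over *Fezf2−ve*) of the 7 tested genes from edgeR with the animal block (black, bars 1 SE), without the block (red) and with 1 animal left out at a time (blue). Among the fits with the block and all animals, *Sptan1* had the largest value (3.21). Over all fits drawn, *Dst* ranged from −5.59 without the block to 1.52 without animal 5.

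Concentration of reads in 1 library was common in these data. Among the 3275 tested genes with at least 30 reads, the top library held a median of 57.6% of a gene's reads, and 1968 genes (60.1%) had at least 50% there. *Sptan1* (70.5%) and *Ank3* (67.6%) were above this median and *Macf1* (43.8%) was below it. *Dst*, at 98.1%, was among 551 genes (16.8%) with at least 90% of their reads in 1 library. In the whole table, 165 genes had at least 1000 reads in 1 library that held at least 90% of their total, 36 of them in *Fezf2−ve* library 5.

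**Figure D5:**
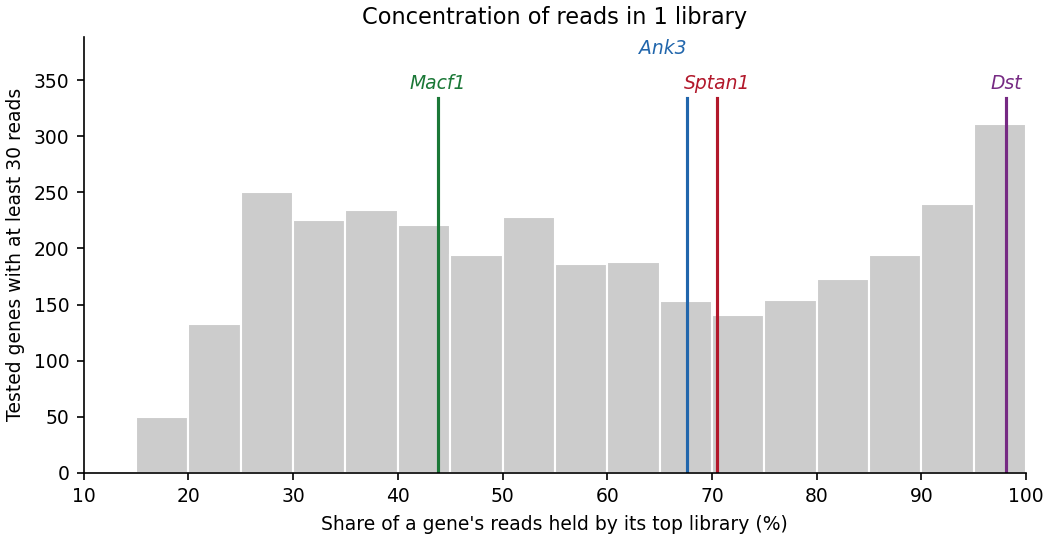
Histogram of the share of a gene's reads in its top library for the 3275 tested genes with at least 30 reads, with lines at *Macf1* (43.8%), *Ank3* (67.6%), *Sptan1* (70.5%) and *Dst* (98.1%). The median over these genes was 57.6%.

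To compare the 9 genes with each other, CPM was divided by the length of the annotated gene. The study described its libraries as biased to the 3′ end, a design in which reads need not grow with length. Across 23507 genes, total reads correlated with gene span (Spearman 0.59) and with exon length (0.48). Per 100 kb of gene span, the mean over 10 libraries was 1099 ± 3341 CPM (SD) for *Dst*, 159 ± 335 for *Sptan1*, 63.3 ± 109 for *Macf1*, 41.6 ± 93.4 for *Ank3* and 15.1 ± 17.6 for *Sptbn4*. The other genes followed at 3.72 ± 7.34 (*Sptb*), 2.76 ± 6.08 (*Sptbn1*), 1.59 ± 2.33 (*Ank1*) and 0.763 ± 1.39 CPM per 100 kb (*Ank2*). Without the top library of each gene the means were 53.9 (*Sptan1*), 42.4 (*Dst*), 29.8 (*Macf1*) and 12.3 CPM per 100 kb (*Ank3*), with *Sptan1* ahead of *Dst*. The mean log2 difference between neighbours in the order by mean was smaller in size than its SD over single libraries for every pair, which describes the spread and is not a test. The widest step, *Sptbn4* over *Sptb*, was 1.84 ± 2.01 (SD), with *Sptbn4* higher in 6 libraries and lower in 1. By median over libraries, *Sptan1* had 54.1 CPM per 100 kb, *Macf1* 19.6, *Dst* 13.5, *Sptbn4* 9.76 and *Ank3* 7.83, and *Dst* was lower than *Sptan1* per 100 kb in 7 of 10 libraries. This order came from the division by length, as the median CPM without it was 65.5 for *Macf1*, 54.2 for *Dst*, 49.2 for *Ank3* and 35.6 for *Sptan1*, the lowest of these 4 (8.91 for *Sptbn4*). By mean per kb of exon, *Ank3* moved ahead of *Macf1* (7.51 and 6.75 CPM per kb), and the other ranks by mean were the same. By median per kb of exon the values were 2.67 (*Sptan1*), 2.08 (*Macf1*), 1.41 (*Ank3*), 1.32 (*Dst*) and 0.931 CPM per kb (*Sptbn4*).

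The genes whose levels followed *Sptan1* most closely over the 10 libraries, among 2427 tested genes with reads in at least 8 libraries, were *Snx3* (Pearson r = 0.82), *Kpna3* (0.81) and *Ccdc92* (0.81). All 3 had their most reads in *Fezf2+ve* library 4 (120, 487 and 485), and *Ccdc92* was also high in *Fezf2+ve* library 2 (441 reads). For *Dst* they were *Scarb2* (r = 0.91), *Cacna1e* (0.91) and *Tram1* (0.90), each with its most reads in *Fezf2−ve* library 5 (326, 218 and 411 reads). These correlations are descriptions, and the libraries of an animal share their source.

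Partner genes were described by list. Of 8 other spectrin and plakin family genes, 7 were in the table and 2 were tested, of which 0 passed in either direction. The median log2 fold change of these was 1.32 (0.58 after downsampling to the smallest library, and 0.84 to 2.91 without 1 animal), and *Plec* and *Eppk1* were at 0. Of 10 genes for other proteins with spectrin repeats, 7 were tested and 0 passed, with a median log2 fold change of −0.68 (−0.16 over all tested genes). The sign of this median turned without the animal block (0.49) and without animal 2 (0.26). *Trio*, a guanine nucleotide exchange factor, had the most reads (1278), 54.3% of them in *Fezf2+ve* library 5. The smallest p-values of that list belonged to *Actn3*, *Syne1* and *Actn2*, with log2 fold changes of 2.57 ± 1.75, −2.37 ± 1.83 and 1.49 ± 1.39 (SE).

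The spectrin lattice meets actin at junctions that hold adducin, tropomodulin, tropomyosin and protein 4.1. Of 18 such genes 14 were tested, 0 were called by edgeR at FDR ≤0.1, and at an unadjusted p under 0.05 the list had 1 gene lower and 0 higher in *Fezf2+ve*, with a median log2 fold change of −0.48 (−1.03 to −0.44 without 1 animal, and −1.18 after downsampling). The gene was *Tpm3*, a tropomyosin, with 8, 2, 5, 1 and 7 reads in *Fezf2+ve* libraries 1 to 5 and 26, 26, 232, 93 and 437 reads in *Fezf2−ve* libraries 1 to 5. Every *Fezf2−ve* library had more *Tpm3* reads than every *Fezf2+ve* library. The fit gave a log2 fold change of −4.44 ± 1.29 (SE), with an unadjusted p of 0.0026 and an adjusted p of 0.998 by edgeR with the block, and DESeq2 and edgeR without the block both called it, whereas limma-voom with the block did not. *Tpm3* is made in most cell types, and the microglia marker sums were likewise higher in every *Fezf2−ve* library, with their part in *Tpm3* not tested. *Actb*, with the most reads of the list (1311), had a log2 fold change of −2.05 ± 1.80 (SE), and *Epb41l1* and *Epb41l2* had 2.24 ± 1.59 and −1.69 ± 1.31 (SE).

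Of 19 membrane proteins that bind ankyrins, 12 were tested, 0 passed in either direction at an unadjusted p under 0.05, and 10 of the 12 had a log2 fold change above 0, with a median of 1.84 (−0.16 over all tested genes), which fell to 0.92 without animal 5. *Nfasc*, the initial segment adhesion molecule neurofascin, had 14, 9, 23, 52 and 725 reads in *Fezf2+ve* libraries 1 to 5 and 1065, 10, 3, 3 and 4 reads in *Fezf2−ve* libraries 1 to 5. It was high in 1 library of each type, from different animals, with a log2 fold change of 2.53 ± 2.11 (SE). *Nrcam* had 90.9% of its 362 reads in *Fezf2+ve* library 2 (2.30 ± 1.54), and *Chl1* had 75% of its 140 reads in *Fezf2+ve* library 5 (1.67 ± 1.18, log2 fold change ± SE). The genes *Scn4b* and *Rhbg* were at 0.

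Of 15 microtubule end and initial segment partners, 11 were tested, 0 passed in either direction at an unadjusted p under 0.05, and the median log2 fold change was −0.09 (0.07 without animal 1 and −0.90 without animal 3). *Mapre2*, an end-binding protein, had 9, 4, 1104, 222 and 0 reads in *Fezf2+ve* libraries 1 to 5 and 5, 0, 7, 4 and 1 reads in *Fezf2−ve* libraries 1 to 5. *Fezf2+ve* library 3 held 81.4% of these reads, as it held most of those of *Ank3*. The log2 fold change of *Mapre2* was 4.23 ± 2.11 (SE) with an adjusted p of 0.998 by edgeR with the block, whereas edgeR without the block called it, and DESeq2 and limma-voom with the block did not. *Clasp1*, a microtubule plus-end protein, had 13574 reads, with 1019 and 1424 in *Fezf2+ve* libraries 2 and 5, 6377 and 4623 in *Fezf2−ve* libraries 1 and 5, and 10 to 50 in the other 6. *Clip1* and *Gas2l3* had log2 fold changes of −1.40 ± 1.17 and −1.20 ± 1.38 (SE). Of 7 calpain genes, the proteases that cleave αII-spectrin together with their subunit and inhibitor, 4 were tested and 0 passed, with a median log2 fold change of 0.17. The sign of this median turned with DESeq2 (−0.02), with no filter (−0.25), after downsampling (−0.75) and without animal 2 (−0.32) or 4 (−0.27). *Capns1*, with the most reads of them, had 21 in all and a log2 fold change of −2.41 ± 1.67 (SE), and *Capn1* and *Capn2* had 1.59 ± 1.83 and 0.51 ± 1.36 (SE).

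Of the marker lists, 11 of 13 tested microglia genes and 6 of 6 tested red blood cell genes were lower in *Fezf2+ve* IT-PNs at an unadjusted p under 0.05, with 0 called by edgeR at FDR ≤0.1 and median log2 fold changes of −4.88 and −4.01. DESeq2 called 10 and 2 of them, limma-voom 8 and 0, and edgeR without the block 11 and 0. The 6 red blood cell genes were globins in 3 pairs with the same counts, *Hba-a1* and *Hba-a2*, *Hbb-bs* and *Hbb-b1*, and *Hbb-bt* and *Hbb-b2*, so they are not separate observations. In the other marker lists 0 genes passed in either direction, with medians of 0.28 (7 glutamatergic markers), 1.67 (1 interneuron marker), 1.23 (5 astrocyte markers), 0.40 (7 oligodendrocyte markers), 1.12 (5 precursor markers) and 0.20 (4 endothelial and mural markers). With 1 animal left out, these medians ranged from −0.48 to 1.07 (glutamatergic), 1.19 to 1.84 (interneuron), 0.45 to 1.32 (astrocyte), −0.32 to 0.61 (oligodendrocyte), 0.19 to 1.90 (precursor) and −0.58 to 0.66 (endothelial and mural), so the sign of 3 of them depended on single animals. The sign of the interneuron median turned with no filter (−1.41) and after downsampling (−0.34). That of the endothelial and mural median also turned without the animal block (−0.20). The most abundant genes were *Slc1a3* (271 reads) among the astrocyte markers, *Vcan* (1008) among the precursor markers and *Flt1* (26) among the endothelial and mural markers. Markers of oligodendrocytes were highest in *Fezf2+ve* library 2, at 10711 CPM in sum, which was also the *Fezf2+ve* library with the most *Dst* reads, and their part in the *Dst* value was not tested.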

How the data were processed

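The authors used bcl2fastq 1.8.4, split the reads by barcode with sabre, trimmed them with the FASTX-Toolkit and discarded short ones, mapped the rest to mm10 with TopHat2 2.1.1 and counted them on RefFlat genes and ERCC transcripts with bedtools 2.26.0, and the deposited tables hold these read counts without normalization. The study's reads mapped to introns as well as exons, and whether the counted intervals held introns, or strand was used, is not stated. A deposited table of the authors' DESeq2 comparison, with fold changes and p-values, was not used.

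Genes reaching 10 CPM in 2 or more libraries were normalized by TMM and tested with edgeR 4.0.16 in R 4.3.3 (quasi-likelihood, animal as a block, Benjamini-Hochberg adjustment over all genes tested). Standard errors were calculated back from the F statistic. DESeq2 1.42.0 and limma 3.58.1 were alternatives. Python 3.11.15 with scipy 1.17.1 was used for exact tests. The pairing comes from the sample records; deviations of both libraries of an animal from their type means correlated at −0.0267 to 0.097 across genes. Lengths and positions are from GENCODE vM21, and 23507 of 24453 symbols matched.

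The members and lists were chosen with earlier results of these data known. Named genes were the 9 members, in each list up to 3 genes with the smallest p and the gene with the most reads (for marker lists the most abundant gene), and 3 genes most like *Sptan1* and *Dst*; *Fezf2*, *Slc17a7* and *Mir6896* were added after their values were seen. Results of some genes under this rule are not reported here.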

Additional observations from a re-analysis of the deposited data

Results flagged for a closer look

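In 6 of 18 groups of 5 libraries (9 genes in each type), the highest library lay apart from the others by more than Dixon's 95% limit for the level as log2(CPM + 1); chance gives about 1 in 20 such groups. *Dst* had a level of 15.65 in *Fezf2−ve* library 5 and of 9.73 in *Fezf2+ve* library 2. *Sptb* had 2.91 in *Fezf2+ve* library 2, *Sptbn1* had 3.89 in *Fezf2+ve* library 3 and 4.66 in *Fezf2−ve* library 3, and *Ank2* had 2.98 in *Fezf2+ve* library 3. In these last 4 cases the other 4 libraries of the type had 0 reads and the library named had 1 to 5, so any read there passes the limit and the rate of 1 in 20 does not apply to them.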

How the results depend on the processing

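No gene was called by edgeR with the block (288 at an unadjusted p under 0.05), whereas the fit without the block called 279, DESeq2 98 and limma-voom 13; the count was 0 under the other alternatives, with each animal left out too. None of the 7 genes was called where an alternative gave it an adjusted p; DESeq2 gave none for *Sptbn1*, *Sptbn4* and *Ank2*, the stricter filter none for *Sptbn1* and *Ank2*. Without the block the log2 fold change of *Dst* was −5.59; with limma-voom that of *Sptbn1* was 0.19, and after downsampling that of *Ank2* was 0.04. With each animal left out, log2 fold changes ranged from 2.46 to 4.14 (*Sptan1*), −0.55 to −0.50 (*Sptbn1*), 0.01 to 1.30 (*Sptbn4*), −1.72 to −1.63 (*Ank2*), 0.91 to 2.73 (*Ank3*), −0.56 to 1.52 (*Dst*) and −1.87 to −0.12 (*Macf1*); animals without which *Sptbn1* or *Ank2* failed the filter gave no value. Several list medians changed with the processing or with 1 animal left out. That of spectrin repeat genes was 0.49 without the block and −1.07 to 0.26 without 1 animal. For junction genes it was −1.0 with no filter, −1.13 with the stricter filter, −1.18 downsampled and −1.03 to −0.44 without 1 animal. Without 1 animal it ranged from 0.84 to 2.91 for other family genes and from −0.90 to 0.07 for microtubule partners. For interneuron markers it was −1.41 with no filter and −0.34 downsampled. By mean per exon length *Ank3* ranked 3 and *Macf1* 4. The causes were not tested. Depth limits all values: 3 reads are 13.8 CPM or more.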
